A study of Mus musculus with 36 samples.

Results

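The data are bulk RNA-seq of the unmyelinated optic nerve (UON) of C57BL/6 mice at 2 times after optic nerve crush, 3 days and 2 weeks, and the 2 times were compared with each other directly, without naïve libraries. The 4 libraries were taken by their labels from the 36 of the series: 1 female and 1 male pool at 3 days, and 1 female and 1 male pool at 2 weeks. The mice had no engineered allele and were adults of 2 to 4 months. The injury was a brief forceps crush of the optic nerve on 1 side, and the segment collected was the stretch just behind the eye, before the nerve becomes myelinated. Each library held equal amounts of RNA from 2 mice of 1 sex, so n = 2 pools per time, and sex cannot be told apart from the particular mice of a pool. The crush libraries of the myelinated nerve (MON) used below came from the same mice. The microbead libraries, a glaucoma model in which beads injected into the front of the eye raise its pressure, came from other mice of the strain and were collected at the same 2 times and at 6 weeks. Naïve UON values, given for reference, came from 1 female and 1 male pool of uninjured other mice of the strain. These naïve pools entered the fit only in some alternative settings.

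The UON holds the axons of retinal ganglion cells, whose cell bodies lie in the retina, together with astrocytes, microglia, vessels and connective tissue. After a crush the axons beyond the injury are cut off from their cell bodies and degenerate, while microglia and macrophages take up the debris and some resident cells divide. The study states that the crush is applied to the MON. The UON therefore lies between the eye and the crush, on the side of the cell bodies. Axons carry RNA and glia can take up neuronal RNA, so neuronal transcripts are found in a nerve that has few or no neuronal cell bodies. In bulk tissue, fewer cells of a type and less RNA per cell cannot be told apart.

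The 4 libraries held 28.48 to 58.46 M estimated counts. The astrocyte markers were high in each of them, with a summed level of 11699 to 15778 CPM (counts scaled to a common library size), which is what the tissue label calls for, and photoreceptor markers summed to 34.6 to 88.9 CPM. Myelin and oligodendrocyte markers were also high in 3 of the libraries (19552 to 25728 CPM) although the segment is called unmyelinated, and they summed to 5394 CPM in the male pool at 2 weeks. That male 2-week library stood apart in other ways. It had counts in 21317 genes, against 24293 to 26776 in the other 3, and its log2 CPM correlated with theirs at Pearson r 0.9246 to 0.9365 (across genes, which are not independent replicates), against 0.9575 to 0.963 among the other 3. Mitochondrial genes held 1.58% and 4.62% of the counts in the female and male pools at 3 days and 0.757% and 0.526% at 2 weeks. Throughout, values are given per pool, female first, since 2 pools give no useful SD.

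The count of genes lower at 2 weeks was above the count higher, although with edgeR this rested on the male 2-week pool. Of 23089 genes tested by edgeR's quasi-likelihood test, 7 were lower at 2 weeks (0.0303%) and 0 were higher (0%) where a call needed an adjusted p below 0.05 together with a log2 fold change larger than 1 in size. At an unadjusted p under 0.05, 875 genes were lower (3.79%) and 404 higher (1.75%). DESeq2, run on the same libraries with the same terms, called 294 genes lower (1.39% of 21187) and 54 higher (0.255%). Without the male 2-week pool edgeR called 7 lower and 8 higher, and DESeq2 198 lower and 28 higher. The 7 genes called by edgeR were of 2 kinds. Cenpa and Prc1, genes of dividing cells, were also low in naïve UON. Rph3a, Rims1 and Nrsn1, which are neuronal genes, and Tmem151b and Vwa5b2 were higher in naïve UON than at either time after crush.

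Cenpa encodes the histone H3 variant that marks the centromere (ENSMUSG00000029177, chromosome 5, 30666777 to 30674830, plus strand, GRCm38). Its level was 68.7 CPM in the female and 49.8 CPM in the male pool at 3 days, and 3.14 and 2.21 CPM at 2 weeks. Both 2-week pools lay far below both 3-day pools and somewhat above the naïve pools, at 1.35 and 0.619 CPM. The log2 fold change was -4.43 (SE 0.42, edgeR adjusted p = 0.0171). Prc1 encodes the protein that bundles microtubules at the midzone of the mitotic spindle (ENSMUSG00000038943, chromosome 7, 80294450 to 80316259, plus strand). It had 134 and 51.9 CPM at 3 days and 1.79 and 1.57 CPM at 2 weeks. The 2 times did not overlap, and the log2 fold change was -5.70 (SE 0.60, edgeR adjusted p = 0.0231).

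Rph3a encodes rabphilin-3A, a Rab3 effector on synaptic vesicles (ENSMUSG00000029608, chromosome 5, 120940499 to 121010092, minus strand). It fell from 308 and 189.6 CPM at 3 days to 1.71 and 1.1 CPM at 2 weeks. The naïve pools had 506 and 670.1 CPM, so at 3 days its transcript was still present at a level within a few fold of naïve, and at 2 weeks it was nearly gone from both pools. The log2 fold change was -7.44 (SE 0.67, edgeR adjusted p = 0.0171). Rims1 encodes an active zone scaffold that holds vesicles at the release site (ENSMUSG00000041670, chromosome 1, 22286251 to 22805994, minus strand). It went from 27.1 and 24.2 CPM to 0.4 and 0.0327 CPM, which rests on few reads at 2 weeks, with a log2 fold change of -6.94 (SE 0.83, edgeR adjusted p = 0.0379). Naïve pools had 35.8 and 60.2 CPM.

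Nrsn1 encodes neurensin-1, a vesicle membrane protein of neurites (ENSMUSG00000048978, chromosome 13, 25252040 to 25270502, minus strand). Its level was 93.8 and 113 CPM at 3 days, 6.28 and 6.73 CPM at 2 weeks, and 201 and 234 CPM in naïve UON. The pools of 1 time were close to each other, and the log2 fold change was -3.94 (SE 0.47, edgeR adjusted p = 0.0379). Vwa5b2, which has a von Willebrand factor A domain (ENSMUSG00000046613, chromosome 16, 20589471 to 20605377, plus strand), had 70.1 and 60 CPM at 3 days and 2.44 and 1.37 CPM at 2 weeks (log2 fold change -5.05, SE 0.56, edgeR adjusted p = 0.0302). Tmem151b, which encodes a transmembrane protein (ENSMUSG00000096847, chromosome 17, 45541952 to 45549677, minus strand), had 5.8 and 7.11 CPM at 3 days and no count in either pool at 2 weeks. A count of 0 allows up to 3 read pairs, or 12 of these estimated counts, per library, so Tmem151b was at least 30.4-fold lower (edgeR adjusted p = 0.0231).

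**Figure D1:**
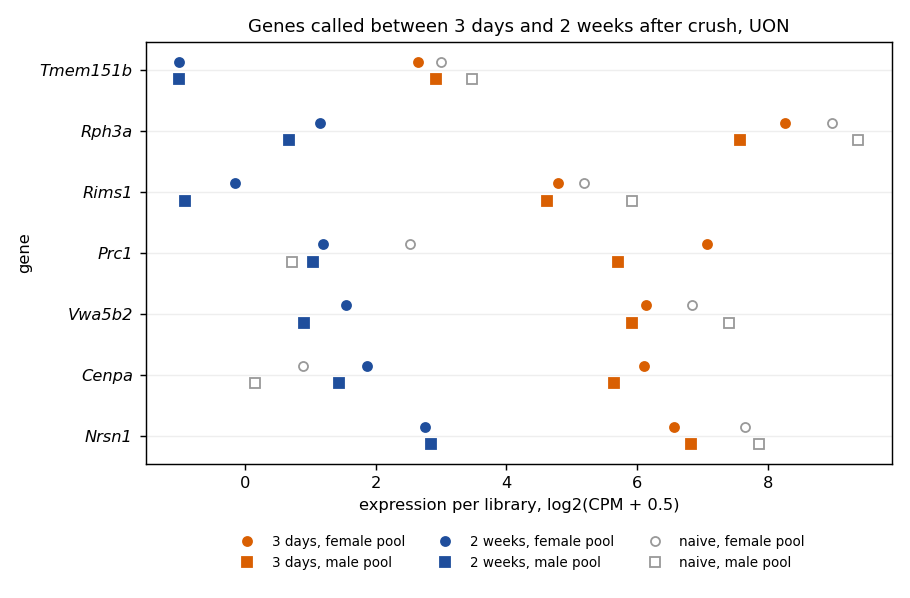
The 7 genes called between 3 days and 2 weeks, 1 row per gene, with expression in log2(CPM + 0.5) on the x axis. Orange marks are the 3-day pools, blue the 2-week pools and grey the naïve pools, with circles for female and squares for male pools. For all 7 genes both blue marks lie to the left of both orange marks. For Cenpa and Prc1 the grey marks lie on the blue side, and for the other 5 genes on the orange side.

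All 7 were lower at 2 weeks under each of the 15 alternative settings, and Rph3a was called under 15 of them (highest adjusted p 0.034). Without the female 3-day pool, Cenpa, Prc1, Rims1, Nrsn1 and Vwa5b2 lost their call (edgeR adjusted p = 0.0782, 0.0532, 0.0683, 0.103 and 0.0683), and without the male 2-week pool Prc1, Nrsn1 and Vwa5b2 lost theirs (0.0555, 0.13 and 0.064).

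The mitosis list was lower at 2 weeks throughout. It holds 25 genes of spindle, kinetochore and mitotic kinases, of which 25 were tested, and its median log2 fold change was -4.49, against -0.0974 over all genes tested. In 25 of 25 both 2-week pools lay below both 3-day pools, against 19.2% of all genes. All 25 had an unadjusted p under 0.05, edgeR called 1 (Prc1, 0.0303% of all genes called lower), and DESeq2 called 18 (1.39% of all genes). The summed level of the list was 1569 and 829 CPM at 3 days, 89.5 and 102 CPM at 2 weeks, and 73.3 and 39.4 CPM in naïve UON. The medians of the female and the male pools alone were close, at -4.19 and -4.07. Without the male 2-week pool DESeq2 called 22 members lower and edgeR 0, and without the female 2-week pool edgeR called 7.

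Top2a, the topoisomerase that untangles chromosomes before they separate, had 195 and 56.4 CPM at 3 days and 7.46 and 11.2 CPM at 2 weeks (log2 fold change -3.44, SE 0.61, edgeR adjusted p = 0.209, DESeq2 3.75e-06). Ccnb1, the mitotic cyclin B1, had 146 and 61.1 CPM and then 2.93 and 0.131 CPM (-6.58, SE 1.04, edgeR adjusted p = 0.142, DESeq2 2.74e-13). Cdc20, the activator of the anaphase-promoting complex, had 157 and 75.5 CPM and then 8.41 and 0 CPM, and neither tool called it (edgeR adjusted p = 0.657, DESeq2 0.197). In all 3 the 2 times did not overlap, and the female pool at 3 days was the highest of the 4.

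Other members were picked after their values were seen. Ccna2, the cyclin A of S phase and early mitosis, had 51.5 and 42.1 CPM at 3 days and 3.73 and 2.39 CPM at 2 weeks (edgeR adjusted p = 0.0909, DESeq2 2.41e-10). Mki67, which coats mitotic chromosomes and is the usual marker of cycling cells, had 90.2 and 40.8 CPM and then 6.2 and 0.769 CPM (edgeR adjusted p = 0.23, DESeq2 4.37e-07). Foxm1, the transcription factor of mitotic genes, had 21.2 and 16.1 CPM and then 0.894 and 0.491 CPM (edgeR adjusted p = 0.209, DESeq2 8.53e-08). These 3 were low in both 2-week pools. Cdk1, the mitotic kinase, and Cenpf, a kinetochore protein, were the least changed. Cdk1 had 43.1 and 43.5 CPM and then 4.51 and 15 CPM, and Cenpf 103 and 46.9 CPM and then 18.7 and 37.5 CPM. Neither tool called them (edgeR adjusted p = 0.751 and 0.845).

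**Figure D2:**
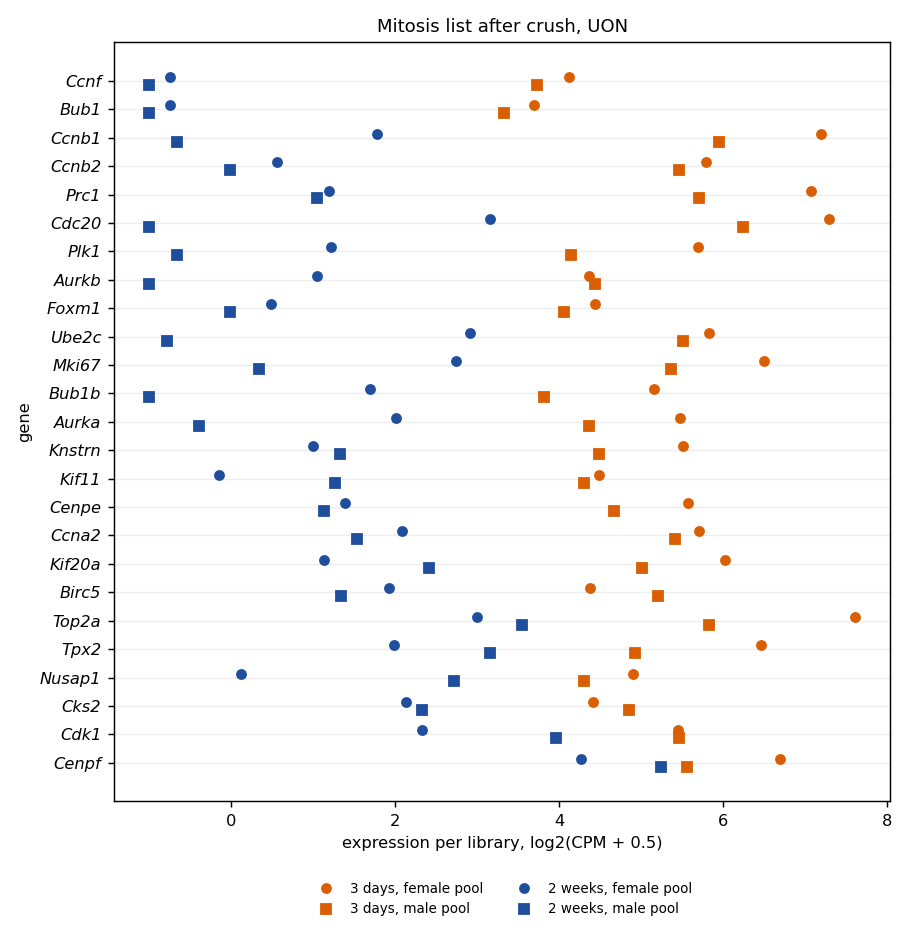
The 25 genes of the mitosis list, ordered by log2 fold change from the lowest at the top, with expression in log2(CPM + 0.5) on the x axis. Orange marks are the 3-day pools and blue the 2-week pools, with circles for female and squares for male pools. In each row both blue marks lie to the left of both orange marks, and the gap is smallest for Cenpf at the bottom.

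Many mitotic genes share a pair of promoter elements: the cell cycle homology region (CHR), read by the MuvB complexes, and CCAAT boxes, read by NF-Y. The promoters of both called genes of this kind and of Ccnb2, the cyclin B2 gene, are given to show them, from 250 bases before to 50 bases after the start site, with the sequence of RefSeq on GRCm38.p6, 5′ to 3′ along the gene's strand. Capitals mark TTTGAA and CCAAT, or ATTGG where the box lies on the other strand. The Cenpa window is chr5:30666636-30666935 on the plus strand, the Prc1 window chr7:80294201-80294500 on the plus strand, and the Ccnb2 window chr9:70421505-70421804 on the minus strand.
Cenpa: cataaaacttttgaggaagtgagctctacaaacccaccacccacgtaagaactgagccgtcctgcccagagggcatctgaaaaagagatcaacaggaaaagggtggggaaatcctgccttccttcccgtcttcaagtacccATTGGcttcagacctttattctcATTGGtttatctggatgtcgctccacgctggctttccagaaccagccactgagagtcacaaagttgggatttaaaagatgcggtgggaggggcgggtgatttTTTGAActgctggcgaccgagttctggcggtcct
Prc1: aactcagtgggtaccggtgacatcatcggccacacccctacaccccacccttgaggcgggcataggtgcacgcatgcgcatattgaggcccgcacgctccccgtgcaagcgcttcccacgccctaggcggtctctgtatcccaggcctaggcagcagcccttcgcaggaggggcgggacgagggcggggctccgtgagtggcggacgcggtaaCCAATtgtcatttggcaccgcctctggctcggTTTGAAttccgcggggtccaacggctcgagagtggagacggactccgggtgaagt
Ccnb2: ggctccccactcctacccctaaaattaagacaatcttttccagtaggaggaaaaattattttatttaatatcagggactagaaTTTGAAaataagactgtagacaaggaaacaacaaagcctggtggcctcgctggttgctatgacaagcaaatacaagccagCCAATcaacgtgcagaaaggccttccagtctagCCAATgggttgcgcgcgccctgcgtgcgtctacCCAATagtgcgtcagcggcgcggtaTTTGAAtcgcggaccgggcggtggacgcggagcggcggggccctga
In Cenpa the TTTGAA begins at base 17 after the start site and the boxes at -109 and -86. In Prc1 the TTTGAA begins at -5 and the box at -37, and in Ccnb2 a TTTGAA begins at -167 and another at 5, and 3 boxes at -87, -54 and -21. The search took TTTGAA or TTCGAA on either strand as a CHR, and CCAAT on either strand as a box, and a CHR and a box can share at most 1 base, at their ends. Of the 25 mitosis genes, 20 had a promoter in the table. A CHR was found in 14 of these (70%) and a box in 17 (85%), with both in 14 (70%). Among all 27025 genes with a promoter the shares were 21.7%, 41.1% and 9.65%. These are matches of letters in a window, not sites known to be used, and the genes of the list are well known for them.

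Ccnb2 itself had 54.9 and 43.8 CPM at 3 days and 0.97 and 0.491 CPM at 2 weeks (edgeR adjusted p = 0.209, DESeq2 1.87e-10). Both 2-week pools were back at the level of the naïve pools, 0.909 and 0.149 CPM.

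Genes of DNA replication moved less than those of mitosis. The list of 18 had a median log2 fold change of -0.93, with 10 of 18 below without overlap (19.2% of all genes) and none above. edgeR called 0 of them in either direction and 3 had an unadjusted p under 0.05. DESeq2 called 3 lower: Rrm2, Uhrf1 and Mcm5. Rrm2, the small subunit of ribonucleotide reductase, had 65.9 and 51.6 CPM at 3 days and 10.4 and 1.21 CPM at 2 weeks (edgeR adjusted p = 0.322, DESeq2 7.82e-05). Pcna, the sliding clamp of DNA polymerase, had 52.4 and 67.7 CPM and then 65.1 and 112 CPM, so its 2 times overlapped. Mcm6, a subunit of the replicative helicase, had 44.3 and 45.1 CPM and then 32.7 and 26 CPM (edgeR adjusted p = 0.845 for both Pcna and Mcm6). Of these 18 genes, 15 had a promoter, with a CHR in 3 (20%) and a CCAAT box in 9 (60%).

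The list of axonal and ganglion cell RNA did not move as 1 block. It has 16 genes, 16 tested, with a median log2 fold change of -1.11. In 10 both 2-week pools lay below both 3-day pools (19.2% of all genes), and in 1, Uchl1, above (11.8%). edgeR called 0 of the 16 and 7 had an unadjusted p under 0.05. DESeq2 called 5 lower: Nefl, Nefh, Ina, Snap25 and Pou4f1. The summed level was 850 and 1000 CPM at 3 days, 538 and 451 CPM at 2 weeks, and 1040 and 1095 CPM in naïve UON.

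Neurofilament genes, which encode the intermediate filaments of axons, were far lower at 2 weeks. Nefh, the heavy chain, had 119 and 48.6 CPM at 3 days and 0.609 and 0.0655 CPM at 2 weeks, with 116 and 191 CPM in naïve UON (edgeR adjusted p = 0.0635, DESeq2 6.56e-20). Nefl, the light chain, had 131 and 96.3 CPM and then 7.8 and 2.93 CPM (edgeR adjusted p = 0.18, DESeq2 1.58e-08). Their 2 times were well apart. Snap25, the SNARE protein of the presynaptic membrane, had 15.9 and 41.1 CPM and then 3.81 and 3.67 CPM (edgeR adjusted p = 0.196, DESeq2 1.67e-05).

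Of the 3 most abundant members, Map1b was also lower in both 2-week pools, and Uchl1 and Tubb3 were not. Map1b, a microtubule-associated protein of growing axons, had 304 and 399.9 CPM at 3 days and 172 and 108 CPM at 2 weeks (edgeR adjusted p = 0.845). Uchl1, a ubiquitin hydrolase abundant in neurons, had 161 and 213 CPM and then 237 and 220.1 CPM. Tubb3, the neuronal beta-tubulin, had 50.6 and 78.7 CPM and then 62.2 and 56.6 CPM, with 56.7 and 57.8 CPM in naïve UON. Neither tool called these 3, and Tubb3 overlapped between the times (edgeR adjusted p = 0.996). In the MON after crush, Tubb3 had 374 and 665 CPM at 3 days and 114 and 74.3 CPM at 2 weeks.

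**Figure D3:**
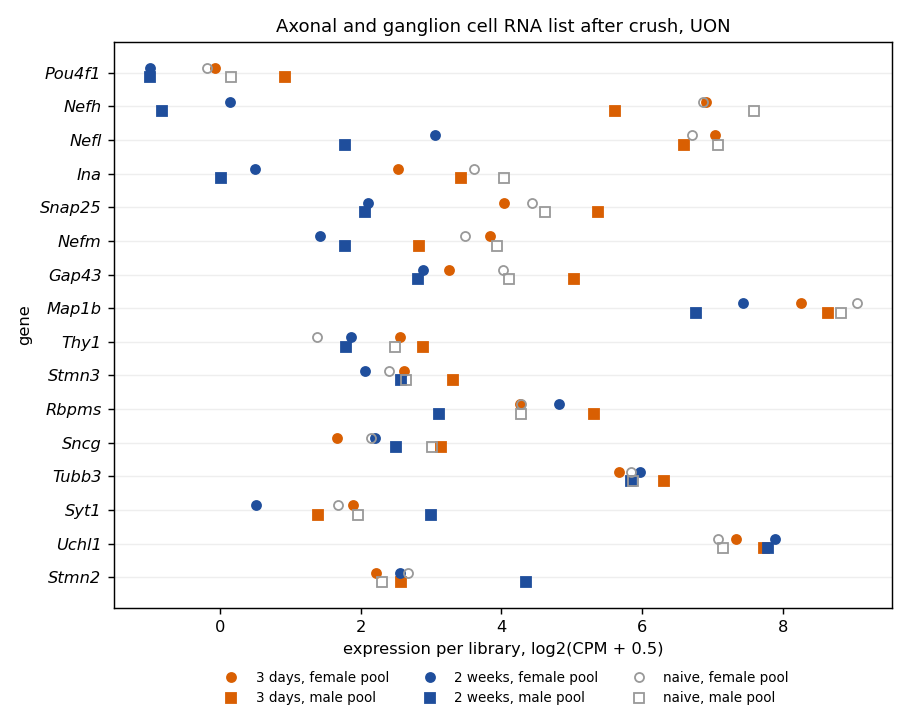
The 16 genes of the axonal and ganglion cell RNA list, ordered by log2 fold change from the lowest at the top, with expression in log2(CPM + 0.5) on the x axis. Orange marks are the 3-day pools, blue the 2-week pools and grey the naïve pools, with circles for female and squares for male pools. The blue marks lie far to the left for the neurofilament genes and Snap25, and among the orange marks for Tubb3.

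Further genes of axonal transport and vesicle release were chosen after their values were seen, because they lay next to the called genes in the ranking. Kif5a, the neuronal kinesin-1 heavy chain, was among the most abundant transcripts at 3 days, with 8262 and 3658 CPM, or 1203 and 537 FPKM, a level per transcript length. At 2 weeks it had 96.6 and 41.7 CPM, or 14.3 and 6.39 FPKM (log2 fold change -6.39, SE 0.82, edgeR adjusted p = 0.0557, DESeq2 2.79e-20). The naïve pools had 13796 and 16745 CPM. The 2 other kinesin-1 heavy chains were lower at 2 weeks by less. Kif5c, also neuronal, had 265 and 223 CPM and then 52.1 and 70.2 CPM (-1.98, SE 0.32, edgeR adjusted p = 0.143, DESeq2 6.06e-05). Kif5b, expressed in most cell types, had 1748 and 1525 CPM and then 535 and 556 CPM (-1.55, SE 0.33, edgeR adjusted p = 0.293, DESeq2 0.00282). Per length, in FPKM, Kif5a stood above Kif5b and Kif5c in both 3-day pools (Kif5b 273 and 243, Kif5c 35.8 and 30.5) and below Kif5b in both 2-week pools (Kif5b 87.5 and 85.3). Against Kif5c (7.43 and 9.39 FPKM), it was above in the female and below in the male pool at 2 weeks.

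Unc13c, a Munc13 protein that primes vesicles, had 3127 and 2989 CPM at 3 days and 85 and 14.1 CPM at 2 weeks (edgeR adjusted p = 0.0635, DESeq2 1.64e-17). Ppfia3, the active zone scaffold liprin-alpha-3, had 195 and 84.9 CPM and then 4.61 and 0.818 CPM (edgeR adjusted p = 0.0948, DESeq2 1.46e-13). Rims2, a relative of Rims1, had 95.2 and 52.4 CPM and then 8.43 and 3.44 CPM (edgeR adjusted p = 0.162, DESeq2 2.01e-07). All 3 were lower in both 2-week pools than in either 3-day pool. Mapk8ip2, a scaffold that ties kinase signalling to kinesin-1 cargo, had 136 and 84.9 CPM and then 7.06 and 5.84 CPM (edgeR adjusted p = 0.0557, DESeq2 5.34e-12). Sptbn4, the spectrin of nodes of Ranvier and the axon initial segment, had 244 and 105 CPM and then 1.58 and 0.507 CPM (edgeR adjusted p = 0.209, DESeq2 8.84e-13). Cplx1, the complexin that clamps the SNARE complex, had 7.54 and 13.8 CPM and then 0.761 and 1.46 CPM (edgeR adjusted p = 0.209, DESeq2 4.6e-06). Again the 2 times did not overlap.

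The list of disease-associated microglia, genes that microglia raise around damage, in part through the TREM2 receptor, leaned the other way. Of its 20 genes, 20 were tested and the median log2 fold change was 1.06. In 13 both 2-week pools lay above both 3-day pools (11.8% of all genes) and in none below. edgeR called 0 of 20, 10 had an unadjusted p under 0.05, and DESeq2 called 6 higher (0.255% of all genes): Itgax, Igf1, Tyrobp, Trem2, Cst7 and Lpl. The lean was larger in the female pools (median 1.66) than in the male pools (0.60). The median was 1.48 without the male 2-week pool and 0.78 without the female 2-week pool.

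Itgax, the integrin CD11c, had 1.76 and 2.02 CPM at 3 days and 44.2 and 19.5 CPM at 2 weeks (log2 fold change 4.12, SE 0.65, edgeR adjusted p = 0.142, DESeq2 2.89e-09). Trem2, the lipid receptor, had 33.8 and 53.1 CPM and then 195 and 129 CPM (2.01, SE 0.55, edgeR adjusted p = 0.59, DESeq2 0.0302). Its signalling partner Tyrobp had 101 and 216 CPM and then 513 and 494 CPM (1.80, SE 0.44, edgeR adjusted p = 0.442, DESeq2 0.0198). In these 3 both 2-week pools lay above both 3-day pools. Igf1, a growth factor made by such microglia, had 7.5 and 9.09 CPM and then 24.2 and 40.2 CPM (edgeR adjusted p = 0.322, DESeq2 0.00107). Lpl, lipoprotein lipase, rested on the female pool: it had 7.72 and 6.05 CPM at 3 days and 118 and 5.65 CPM at 2 weeks (edgeR adjusted p = 0.833, DESeq2 0.0496). Cst7, a cathepsin inhibitor, was likewise highest in the female pool, with 8.13 and 12.3 CPM and then 171 and 20.8 CPM (edgeR adjusted p = 0.783, DESeq2 0.0206).

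The 3 most abundant members were less different. Apoe, the lipid carrier, had 2345 and 10628 CPM at 3 days and 6123 and 20444 CPM at 2 weeks. It was higher in both male pools than in the female pools, so the times overlapped and each sex was higher at 2 weeks (edgeR adjusted p = 0.684, DESeq2 0.0555). Ctsd, the lysosomal protease cathepsin D, had 3315 and 2988 CPM and then 8234 and 4152 CPM. Ctsb, cathepsin B, had 1809 and 1942 CPM and then 2869 and 2203 CPM (edgeR adjusted p = 0.845 for both cathepsins). Neither tool called them.

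**Figure D4:**
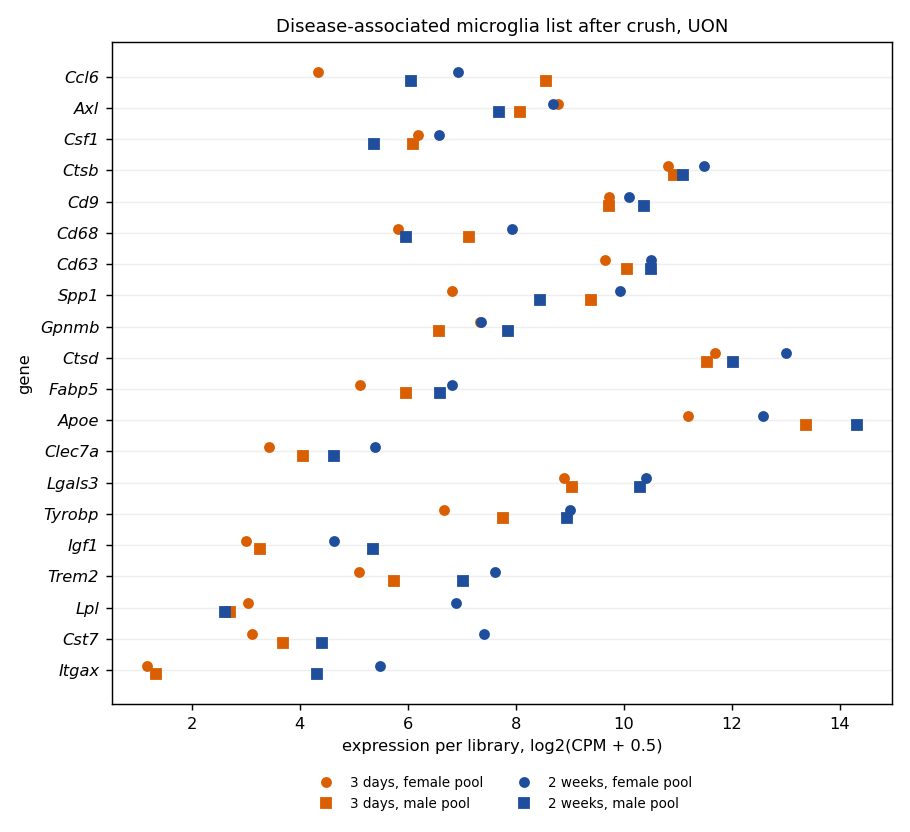
The 20 genes of the disease-associated microglia list, ordered by log2 fold change from the lowest at the top, with expression in log2(CPM + 0.5) on the x axis. Orange marks are the 3-day pools and blue the 2-week pools, with circles for female and squares for male pools. Toward the bottom the blue marks lie to the right of the orange marks, furthest for Itgax, and for Lpl only the female 2-week pool does.

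The other lists of immune cells had medians on both sides of that of all genes, and several differed between the sexes. For all lists, counts at an unadjusted p under 0.05 stand against 1.75% higher and 3.79% lower over all genes (edgeR). Homeostatic microglia had a median of 0.64 over 13 genes, with 5 above without overlap (11.8% of all genes). Of these 13, edgeR called none (3 at an unadjusted p under 0.05) and DESeq2 1. That gene, Fcrls, a receptor-like protein of resident microglia, had 61.7 and 69.9 CPM at 3 days and 263 and 143 CPM at 2 weeks (edgeR adjusted p = 0.364, DESeq2 0.0162). Summed, the list was at 1058 and 1268 CPM at 3 days and at 2186 and 1235 CPM at 2 weeks, so the 2 times overlapped, and the median was -0.15 without the female 2-week pool.

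Lysosomal genes had a median of 0.47 over 21 genes, with 9 above (11.8% of all genes) and 1 below (19.2%) without overlap. The median was 0.72 in the female and -0.08 in the male pools, and 0.09 without the female 2-week pool. edgeR called 0 of them, 3 had an unadjusted p under 0.05, and DESeq2 called Ctss and Ctsl, both cysteine cathepsins, higher. Ctss had 265 and 437 CPM at 3 days and 918 and 1129 CPM at 2 weeks (edgeR adjusted p = 0.432, DESeq2 0.0207). Ctsl had 283 and 329 CPM and then 579 and 1039 CPM (edgeR adjusted p = 0.345, DESeq2 0.00853). Atp6v1e1, a subunit of the proton pump of lysosomes, named after its values were seen, had 80.2 and 85.1 CPM and then 203 and 269 CPM (edgeR adjusted p = 0.313, DESeq2 0.011). For these 3 the lowest 2-week pool was above the highest 3-day pool. DESeq2 called neither Ctss nor Ctsl once the male 2-week pool was left out.

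Markers of infiltrating and border macrophages had a median of -1.53 over 13 genes, none called by edgeR or DESeq2 (2 at an unadjusted p under 0.05). The male 3-day pool set its sign: the median was 0.73 without that pool and -2.88 without the female 3-day pool. Their sum was 54.7 and 318 CPM at 3 days and 51.8 and 158 CPM at 2 weeks, so the male pool was the higher one at each time and the female pools were near the naïve sums of 42.2 and 55 CPM. Ms4a7, the most abundant of them, had 24.7 and 33.2 CPM and then 11 and 89.2 CPM (edgeR adjusted p = 0.878). Neutrophil markers summed to 16.6 and 18.3 CPM and then 48.9 and 19.5 CPM. Of these DESeq2 called Mmp9, a neutrophil gelatinase, lower, at 1.31 and 4.1 CPM and then 0.0761 and 0 CPM (edgeR adjusted p = 0.643, DESeq2 0.000428), and not without the male 2-week pool. Markers of T and NK cells summed to 30.7 and 34.9 CPM and then 34 and 21.5 CPM. Their median was 1.42 over 11 genes, with 4 above (11.8% of all genes) and 1 below (19.2%) without overlap. That median was 1.54 in the female and 0.06 in the male pools, and -0.01 without the female 2-week pool. B cell markers summed to 19.1 and 21.1 CPM and then 26.4 and 27 CPM. Their median was 1.80 over 5 genes, with 2 above without overlap (11.8% of all genes). Neither tool called a member of either list (T and NK 2 higher and 1 lower at an unadjusted p under 0.05).

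Myelin genes differed through 1 library. Over 17 genes the median log2 fold change was -0.64, but it was 0.23 in the female and -1.86 in the male pools, and neither tool called a member (0 at an unadjusted p under 0.05). Mbp, myelin basic protein, had 10898 and 13928 CPM at 3 days and 15357 and 1610.2 CPM at 2 weeks. Without the male 2-week pool its log2 fold change was 0.51, against -0.64 with it (edgeR adjusted p = 0.919). Mobp, another compact myelin protein, had 2448 and 2575 CPM and then 3516 and 252 CPM. Plekhb1, a membrane-binding protein of oligodendrocytes, did not share this, with 2479 and 1593 CPM and then 2634 and 2244 CPM.

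The medians of the astrocyte lists were close to level, although single members were not. The lists of homeostatic, PAN-reactive, A1 and A2 astrocyte genes had medians of -0.05, 0.05, 0.18 and 0.25, and leaving out 1 pool moved these medians between -0.38 and 0.47. Log2 fold changes of members ran from -1.74 to 0.79, -0.98 to 2.57, -1.46 to 3.32 and -2.35 to 2.44 in that order. The PAN-reactive median was -0.58 in the female and 0.20 in the male pools. edgeR called none of their members (1, 2, 1 and 3 at an unadjusted p under 0.05, against 1.75% higher and 3.79% lower over all genes). DESeq2 called 1, in the A2 list: Tgm1, a transglutaminase, had 1.8 and 2.19 CPM at 3 days and 5.12 and 17.7 CPM at 2 weeks, and it was not called without the male 2-week pool. Gfap, the astrocyte intermediate filament, had 13677 and 9752 CPM at 3 days and 12243 and 11191 CPM at 2 weeks (edgeR adjusted p = 0.998). Vim, vimentin, which reactive astrocytes and other cells express, had 3429 and 4014 CPM and then 6459.9 and 5535 CPM (edgeR adjusted p = 0.845). The Gfap values overlapped and the Vim values did not. The 12 housekeeping genes had a median of 0.03.

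Immediate early genes had a median of -0.50 over 19 genes, of which edgeR called 0 (4 lower and 2 higher at an unadjusted p under 0.05) and DESeq2 2 lower. The median was 0.23 in the female and -0.61 in the male pools, and without the male 2-week pool it was 0.11 and DESeq2 called none lower. Ccn2, the matricellular protein CTGF, had 254 and 1521 CPM at 3 days and 107 and 164 CPM at 2 weeks (edgeR adjusted p = 0.783, DESeq2 0.047). Dusp1, a MAP kinase phosphatase, had 672 and 489 CPM and then 131 and 143 CPM (edgeR adjusted p = 0.845, DESeq2 0.129). Jun, a subunit of AP-1, had 747 and 626 CPM and then 457 and 318 CPM (edgeR adjusted p = 0.845). In each the 2-week pools were the lower ones, and the male 3-day pool of Ccn2 was far above the rest.

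Cholesterol synthesis had a median of -0.50 over 21 genes, with 12 below (19.2% of all genes) and 1 above (11.8%) without overlap. edgeR called none (6 at an unadjusted p under 0.05) and DESeq2 1. Hmgcs1, which makes HMG-CoA, had 104 and 104 CPM at 3 days and 65.2 and 71.3 CPM at 2 weeks, and Srebf2, the regulator of the pathway, 115 and 156 CPM and then 110.1 and 89.9 CPM (edgeR adjusted p = 0.845 and 0.847).

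Red blood cell genes had a median of 2.00 over 7 genes, with 5 above without overlap (11.8% of all genes). Of these 7, edgeR called none (4 at an unadjusted p under 0.05) and DESeq2 2. Hbb-bs, a beta-globin, had 104 and 298 CPM at 3 days and 1178 and 673 CPM at 2 weeks (edgeR adjusted p = 0.684, DESeq2 0.0238). Hba-a1, an alpha-globin, had 215 and 575 CPM and then 1361 and 1142 CPM (edgeR adjusted p = 0.786, DESeq2 0.0956). The list summed to 570 and 1509 CPM and then 4327 and 3197 CPM, against 225 and 497 CPM in naïve UON. Globin genes are near-identical copies among which reads can be split. How much blood each dissected segment held was not measured, and its part in the other values was not tested.

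Among supporting cells, the Schwann cell list had a median of 0.45 over 6 genes, with 1 called by DESeq2 and none by edgeR (1 at an unadjusted p under 0.05). That gene, Gldn, gliomedin, which gathers sodium channels at nodes of Ranvier in peripheral nerve, had 23.4 and 20.3 CPM at 3 days and 133 and 79 CPM at 2 weeks (log2 fold change 2.30, SE 0.43, edgeR adjusted p = 0.209, DESeq2 0.000139). Pmp22, a peripheral myelin protein, had 659 and 543 CPM and then 695 and 975 CPM (edgeR adjusted p = 0.845). The Schwann cell median was -0.16 without the male 2-week pool, where DESeq2 still called Gldn. The interstitial matrix list had a median of -0.56 over 22 genes, which was 0.37 without the male 3-day pool and -1.02 without the female one, and of which edgeR called 0 (3 lower and 1 higher at an unadjusted p under 0.05) and DESeq2 1, Postn, periostin, which had 7.68 and 13.4 CPM and then 18.4 and 212 CPM. Postn was not called without the male 2-week pool. Sparc, a collagen-binding protein, had 6809.8 and 6322 CPM and then 9836 and 7391 CPM. Fn1, fibronectin, had 317 and 2948 CPM and then 333 and 272 CPM, so only the male 3-day pool was high (edgeR adjusted p = 0.847 and 0.845).

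Lists without a member called by either tool had medians of 0.07 for endothelium, 0.03 for pericytes and smooth muscle, -0.19 for fibroblasts, -0.28 for oligodendrocyte precursors, -0.40 for basement membrane, 0.22 for complement, 0.12 for antigen presentation, -0.26 for TGF-beta and BMP, -0.04 for gp130 cytokines and STAT3, -0.46 for NRF2 targets and -0.20 for p53 targets. At an unadjusted p under 0.05 they had 2, 0, 0, 0, 2, 4, 1, 1, 1, 1 and 1 members in that order. Some of these medians turned with 1 pool: that of fibroblasts was 1.28 without the male 3-day pool, and that of endothelium -0.44 without the male 2-week pool and 0.63 without the female 3-day pool.

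Further members called by DESeq2 alone were Irf7, Cxcl1 and Mmp12, and none of them was called without the male 2-week pool. Irf7, a regulator of interferon genes, had 80.2 and 141 CPM at 3 days and 26 and 24 CPM at 2 weeks (edgeR adjusted p = 0.293, DESeq2 0.00257), in a list of 21 interferon-stimulated genes whose median was 0.51. The median went against Irf7 and turned with 1 pool, at -0.73 without the male 2-week pool and 1.21 without the female one. Cxcl1, a chemokine that draws neutrophils, had 0.94 and 2.19 CPM and then 3.88 and 26 CPM (edgeR adjusted p = 0.562, DESeq2 0.0032), in a list of 24 chemokines and receptors with a median of 0.36. Mmp12, the macrophage elastase, had 2.1 and 0.683 CPM and then 9.19 and 15.4 CPM (edgeR adjusted p = 0.808, DESeq2 0.011), in a list of 17 matrix proteases and inhibitors with a median of -0.01.

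Markers of cells from outside the nerve were low. The list of retinal neurons other than ganglion cells and photoreceptors had a median of -1.22 over 7 genes, with 3 below without overlap (19.2% of all genes). It summed to 98.3 and 91.1 CPM at 3 days and 52.6 and 26.6 CPM at 2 weeks, with 107 and 88.8 CPM in naïve UON. Of these 7, edgeR called none (3 lower at an unadjusted p under 0.05) and DESeq2 1, Calb2. Calb2, a calcium-binding protein of retinal neurons, had 4.82 and 9.84 CPM at 3 days and 0.381 and 0.72 CPM at 2 weeks (edgeR adjusted p = 0.209, DESeq2 3.06e-06). Its RNA alone does not tell retinal tissue from the axons of ganglion cells. The photoreceptor list had a median of -0.19, or 0.72 without the female 3-day pool, and pigment cells summed to 158 and 76.3 CPM and then 161 and 134 CPM. Skeletal muscle markers summed to 5.91 and 5.71 CPM and then 9.57 and 40.5 CPM, highest in the male 2-week pool. Of these DESeq2 called Acta1, the muscle alpha-actin, higher, at 0 and 0.342 CPM and then 1.29 and 7.1 CPM (edgeR adjusted p = 0.845, DESeq2 0.0248), and not without that pool.

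**Figure D5:**
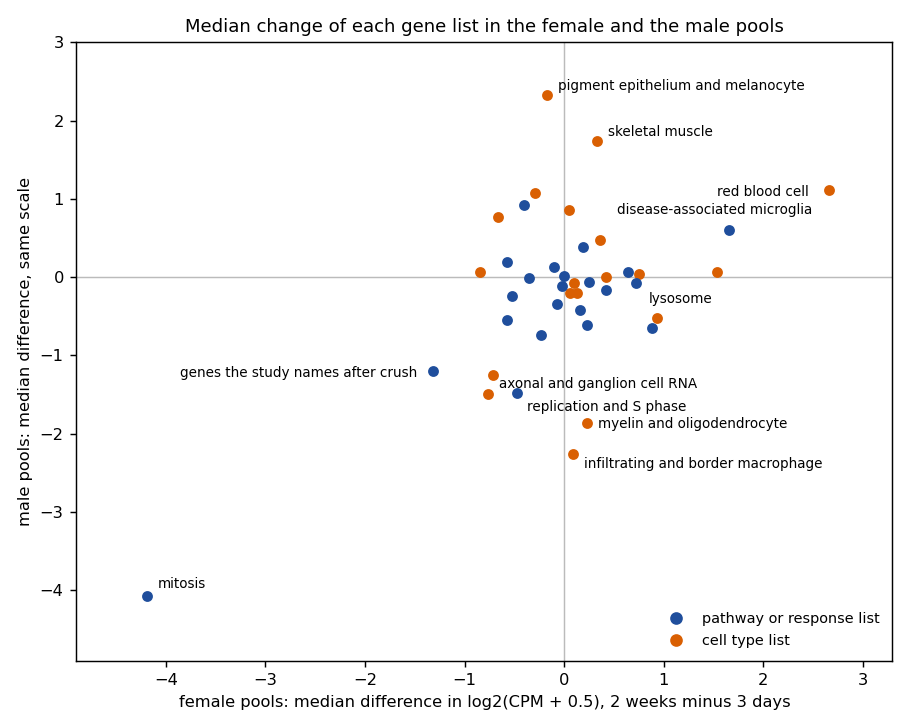
Each point is 1 gene list, placed by the median difference of its genes in log2(CPM + 0.5), 2 weeks minus 3 days, in the female pools (x axis) and in the male pools (y axis). Blue points are lists of pathways and responses, and orange points lists of cell types. Mitosis lies near -4.19 and -4.07, apart from the other lists, while myelin and infiltrating macrophages are low in the male pools only.

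A list of 16 genes was taken from the study's text on the nerve after crush and does not hold every gene named there. They were picked on these samples and are therefore no independent evidence of a direction. Their median log2 fold change was -1.37, with 11 below (19.2% of all genes) and 2 above (11.8%) without overlap. edgeR called 0 of 16 (8 lower and 1 higher at an unadjusted p under 0.05), and DESeq2 called 6 lower. The cell cycle members were among these 6. Ccnf, cyclin F, had 17 and 12.8 CPM at 3 days and 0.0951 and 0 CPM at 2 weeks, and Bub1, a spindle checkpoint kinase, 12.4 and 9.5 CPM and then 0.0951 and 0 CPM (edgeR adjusted p = 0.252 and 0.313). Both were at or below the floor of 0.212 CPM at 2 weeks, so no fold is given. Knstrn, a kinetochore adaptor, had 44.9 and 22 CPM and then 1.5 and 2.01 CPM (edgeR adjusted p = 0.252), and Cks2, a Cdk1-binding subunit, 20.8 and 28.4 CPM and then 3.9 and 4.5 CPM (edgeR adjusted p = 0.542).

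The other members called lower by DESeq2 were Ccn1 and A2m. Ccn1, the matricellular protein CYR61, had 301 and 267 CPM at 3 days and 81.2 and 68.6 CPM at 2 weeks, with 72 and 119 CPM in naïve UON (edgeR adjusted p = 0.596, DESeq2 0.0403). A2m, the protease inhibitor alpha-2-macroglobulin, had 90.3 and 37 CPM and then 12.9 and 16.6 CPM (edgeR adjusted p = 0.482, DESeq2 0.0162). Both were lower in each 2-week pool than in any 3-day pool.

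Serpina3n, a protease inhibitor of reactive astrocytes, was the most abundant of the 16, at 1510.3 and 1430.4 CPM and then 1001 and 591 CPM (edgeR adjusted p = 0.845). The naïve pools had 387 and 516 CPM, below all 4. Egr1, an immediate early transcription factor, had 129 and 41.6 CPM and then 121 and 67.2 CPM, and Neat1, a nuclear long non-coding RNA, 138 and 93 CPM and then 297 and 58.3 CPM (edgeR adjusted p = 0.954 and 0.881). Their times overlapped. Trim56, a ubiquitin ligase, had 15.5 and 9.67 CPM and then 24.8 and 39.3 CPM, and Gp1bb, a platelet glycoprotein, 0.429 and 0.649 CPM and then 5.4 and 0.818 CPM, and these were the 2 members above without overlap (edgeR adjusted p = 0.845 for both).

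The remaining 5 of the 16 passed neither test. Col2a1, a cartilage collagen, had 26.5 and 5.26 CPM and then 4.53 and 0.131 CPM. Slc39a14, a zinc and manganese importer, had 98.3 and 64 CPM and then 53.5 and 33.1 CPM. Oas3, an interferon-induced enzyme, had 3 and 1.47 CPM and then 0.533 and 0 CPM. All 3 were below without overlap. Nhlrc3 had 28.9 and 13.6 CPM and then 21.4 and 6.3 CPM and overlapped, and Cnn1, a smooth muscle protein, had 48.2 and 30.5 CPM and then 29.4 and 29.9 CPM and did not.

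Whether the change from 3 days to 2 weeks after crush differed from that after microbead injection was tested as a difference of the 2 changes, which share no library. edgeR called 0 of 23089 genes (0%), with 739 at an unadjusted p under 0.05 (3.2%), and DESeq2 called 71. Rph3a had the lowest p of the called genes: its change was -7.44 after crush and -0.22 after microbeads, a difference of -7.22 (edgeR adjusted p = 0.136). After microbeads it had 232 and 654 CPM at 3 days and 322 and 372 CPM at 2 weeks, so it was high in all 4 glaucoma pools. Kif5a had 5922 and 23793 CPM and then 9854 and 8149 CPM there (difference -5.73, edgeR adjusted p = 0.586), and Nefh 50.5 and 152 CPM and then 79.2 and 104 CPM (difference -7.89, edgeR adjusted p = 0.511). The axonal and ganglion cell list as a whole had a median of -0.73 after microbeads, against -1.11 after crush. Of its 16 members 7 differed at an unadjusted p under 0.05 (3.2% of all genes).

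The mitosis list was lower at 2 weeks after microbeads as well. Its median after microbeads was -3.52, against -4.49 after crush, and 2 of 25 members differed at an unadjusted p under 0.05. Cenpa had 23.2 and 24.7 CPM at 3 days and 2.36 and 2.33 CPM at 2 weeks after microbeads, a change of -3.31 (difference -1.13, SE 0.52, edgeR adjusted p = 1). The list of disease-associated microglia had a median of -0.24 after microbeads, and 9 of its 20 members differed at an unadjusted p under 0.05 (3.2% of all genes), none past the adjusted threshold. Itgax stayed between 2.64 and 3.26 CPM in the 4 glaucoma pools (difference 3.80, edgeR adjusted p = 1). Globin genes went the other way after microbeads, with a median of -1.30, and 4 of 7 differed at an unadjusted p under 0.05.

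The same crush was compared between the UON and the MON of the same mice, so the libraries of the 2 regions are not independent. Of 26201 genes, edgeR called a difference in 4 (0.0153%), with 2221 at an unadjusted p under 0.05 (8.48%), and DESeq2 called 289. With the pool of mice as a replicate block, which pairs the regions, edgeR called 13, of which 1, Gm3226, a predicted gene, was among the 4. In the MON by itself 5 genes were called higher (0.0191%) and 11 lower (0.042%). Of the 7 genes lower in the UON, Tmem151b was among the 4: in the MON it had 3.02 and 2.32 CPM at 3 days and 1.22 and 1.13 CPM at 2 weeks, where the UON pools had no count (edgeR adjusted p = 0.0247, and 0.086 with the replicate block). Zfp488, a zinc finger protein of oligodendrocytes, had 2.47 and 2.56 CPM and then no count in the UON, at least 11.9-fold lower, and 10.5 and 9.39 CPM and then 10.1 and 8.59 CPM in the MON (edgeR adjusted p = 0.0351, and 0.0887 with the replicate block). Rims1 went from 2.38 and 3.76 CPM to 1.38 and 0.69 CPM in the MON, starting far below the UON (difference -5.45, edgeR adjusted p = 0.156).

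For Rph3a and Cenpa the difference between the regions did not pass the test. In the MON, Rph3a had 77.2 and 37.1 CPM at 3 days and 0.609 and 0.746 CPM at 2 weeks, and Cenpa 38.4 and 56.1 CPM and then 10.2 and 3.59 CPM. The differences were -0.97 and -1.37 (edgeR adjusted p = 0.795 and 0.675), which does not show that the changes were equal. The list medians in the MON were -3.25 for mitosis, -1.12 for axonal RNA, 0.27 for disease-associated microglia, -2.05 for replication and -1.83 for red blood cells. Members that differed between the regions at an unadjusted p under 0.05 (8.48% of all genes) numbered 5 of 25, 4 of 16, 6 of 20, 4 of 18 and 5 of 7 in that order. Pcna was among those of the replication list: in the MON it had 117 and 138 CPM and then 66.8 and 50.2 CPM, where the UON had its higher value at 2 weeks (difference 1.68, edgeR adjusted p = 0.472).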

How the data were processed

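Gene counts of the 4 libraries, of the other injured UON libraries and of the MON libraries were used. Members and gene lists were chosen with earlier results of these data known. The deposited values came from paired reads that the authors mapped with HISAT2 2.2.1 (GRCm38) and assembled with StringTie 1.3.0 on Gencode M25. The authors deposited estimated counts per gene, made from coverage and read length without normalization. The most frequent count above 1 was 4, so 1 read pair is worth about 4 counts, and depth in reads is lower than the totals. The FPKM deposited by the authors are StringTie values and were used for levels between genes only.

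Counts were rounded and tested in edgeR 4.0.16 (R 4.3.3) with TMM scaling, filterByExpr (minimum count 10, minimum total 15), group and sex as terms, the quasi-likelihood F test and Benjamini-Hochberg adjustment. The 2 crush groups leave too little spread to estimate alone, so the 10 injured UON libraries were fitted together (4 residual degrees of freedom, biological coefficient of variation 0.665) and the contrast taken from the 2 crush groups. The region difference used the 20 injured UON and MON libraries with sex by tissue, without pairing the regions of a pool. DESeq2 1.42.0 was an alternative. CPM use TMM factors over 24 libraries. Pools are the only replicates, so p-values measure the spread between pools of 2 mice. Intervals and floors cover counting error only.

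Genes were named by rule: the called genes, up to 4 called members per list, the 3 most abundant members of lists with fewer than 2 called, the study's named genes and the called differences. All others, including those called only by DESeq2, were chosen after their values were seen. Some list members are not reported here. Sex markers matched the labels in 4 of 4 libraries. The statistics were tested on simulated data.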

Additional observations from a re-analysis of the deposited data

Results flagged for a closer look

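Genes whose change from 3 days to 2 weeks differed between the UON and the MON past the adjusted threshold are given here with each region's values, female pool first. Their regions come from the same mice, and with the pool of mice as a replicate block 1 of the 4, Gm3226, was still called.

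Gm3226, a predicted gene, had 55 and 68.6 CPM at 3 days and 43.2 and 19.5 CPM at 2 weeks in the UON, and 1.27 and 0.6 CPM and then 47.9 and 57.9 CPM in the MON, a fitted difference of -6.89 on the log2 scale (edgeR adjusted p = 0.000659). The UON change alone did not pass the test (edgeR adjusted p = 0.845). Reads of predicted genes can be shared with near-identical copies, so its level is uncertain.

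Zkscan16, a zinc finger gene, had 2.17 and 1.4 CPM and then 0.019 and 0 CPM in the UON, and 0 and 0.0621 CPM and then 0.72 and 1.99 CPM in the MON (fitted difference -12.35, edgeR adjusted p = 0.0351). Zfp488 had a fitted difference of -9.68 (edgeR adjusted p = 0.0351) and Tmem151b of -9.93 (edgeR adjusted p = 0.0247), both with no count in the UON at 2 weeks. These 3 fitted differences rest on pools at or near 0 and depend on the prior count, so they are no measure of size.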

How the results depend on the processing

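Counts of genes higher and lower at 2 weeks, 0 and 7, depended on the tool, the libraries that share the spread, and single pools. They were 2 and 4 on the 4 crush libraries alone, 0 and 1 on 6 libraries with naïve, 0 and 13 on all 12 UON libraries, 0 and 13 without the sex term, 5 and 86 without a filter on low counts, and 0 and 4 at a minimum count of 50. DESeq2 gave 54 and 294 on the same libraries and 83 and 278 on 6 libraries. Leaving out 1 pool gave 0 to 19 higher and 5 to 219 lower. The 19 and 219 were without the female 2-week pool, 8 and 7 without the male 2-week pool (4 of the 7 shared), 1 and 13 without the male 3-day pool. Alternatives chosen after seeing the data were DESeq2 without the male 2-week pool (28 and 198) and counts divided by 4 (the same 7). The difference from glaucoma, 0, was 71 with DESeq2, 19 without a filter and 0 to 37 leaving out 1 pool. The difference from the MON, 4, was 289 with DESeq2, 52 without a filter and 1 to 650 leaving out 1 pool, with 650 without the female and 3 without the male 2-week pool. The cause was not tested.

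Called genes kept their direction throughout. The log2 fold change of some genes that were not called changed sign with the pool left out. Without the male 2-week pool Mbp was 0.51 (DESeq2 0.55), Mobp 0.58 (0.62) and Ms4a7 -1.47 (-1.43), and without the female 2-week pool -3.04, -3.33 and 1.77. Without the male 3-day pool Tubb3 was 0.39, Gfap -0.19, Egr1 -0.29, Fn1 0.41 and Cnn1 -1.22, and without the female 3-day pool -0.45, 0.34, 1.03, -3.61 and 0.89. Without the female 2-week pool Neat1 was -0.85 and Gp1bb -0.26, and without the male one 1.33 and 4.13.

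With 2 pools per time, leaving 1 out assumes that the lone pool varies like those of the other groups, and differences of moderate size could not be told from the spread between pools. The 2 times come from different mice, so they are not paired, and sex is already a term. The regions come from the same pools. With the pool as a replicate block, an alternative chosen after seeing the data (20 libraries, 10 pools, 4 residual degrees of freedom), the 4 differences between UON and MON became 13, with 1 shared. Gm3226 kept its call, and Zkscan16, Zfp488 and Tmem151b lost theirs (edgeR adjusted p = 0.141, 0.0887 and 0.086).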
